A study of Felis catus with 6 samples.

Results

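IGF2R, NPC1 and IGFBP6 were followed in PETCC2610, a kidney cell line of the cat, as 3 of the 633 genes in the authors' table of genes called different between cells given DOX with peptide E and cells given DOX alone. The members were chosen by name from this table, and the table itself was selected on the fold change and p-value of that same comparison. Their differences between the groups are therefore given as a description, without a test. The comparison asks what accompanies peptide E treatment in cells that the submitters describe as made senescent by DOX, a state in which cells stop dividing and release inflammatory proteins.

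Both groups carried DOX. The DOX+PeptideE group, with 3 libraries, also received peptide E, a product, per the series title, of a Bifidobacterium adolescentis LA20-k9 fermentation, and the DOX group, with 3 libraries, received DOX only. All libraries were polyA RNA-seq of 1 cell line and are called biological replicates by the submitters, who do not say how the cultures were kept apart, so the authors' p-values may measure only the spread between these libraries. The labels do not expand the name DOX and give no dose, exposure time or passage, and no library of cells lacking DOX was analysed here. The expression value of a gene is a normalized signal whose unit the table does not name, so levels of different genes are not ranked against each other, and depth is unknown.

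The 3 genes belong to the handling of IGF2 and to the lysosome, the acidic compartment where cells break down proteins, sugars and lipids and where senescent cells accumulate undegraded material. IGF2R, the cation-independent mannose 6-phosphate receptor, carries newly made lysosomal enzymes to endosomes and also takes up the growth factor IGF2 for degradation. IGFBP6 is a secreted protein that binds IGF2 in preference to IGF1 and limits its access to signalling receptors. NPC1 is the late endosomal and lysosomal membrane protein that exports cholesterol taken up by the cell, and its loss causes Niemann-Pick disease type C, which also occurs in cats.

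IGF2R was higher with peptide E. Its expression value was 16.81, 25.74 and 32.06 in DOX+PeptideE replicates 1, 2 and 3, against 11.98, 11.75 and 11.91 in DOX replicates 1, 2 and 3. All DOX+PeptideE libraries lay above all DOX libraries, and the DOX libraries were almost equal while the DOX+PeptideE libraries were far apart. The means were 24.9 ± 7.66 in DOX+PeptideE and 11.9 ± 0.118 in DOX (SD, n = 3 each), a ratio of 2.09. The log2 difference, computed on log2(value + 1) as DOX+PeptideE minus DOX, was 0.96 with a standard error of 0.21 from limma. The lowest DOX+PeptideE library, replicate 1, stood at 141% of the DOX mean and the highest, replicate 3, at 270%.

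NPC1 was also higher with peptide E. It had expression values of 5.69, 7.84 and 9.79 in DOX+PeptideE replicates 1, 2 and 3, against 4.18, 3.6 and 3.84 in DOX replicates 1, 2 and 3. The groups did not overlap, and as for IGF2R, DOX+PeptideE replicate 1 was nearest to the DOX libraries. NPC1 averaged 7.77 ± 2.05 in DOX+PeptideE and 3.87 ± 0.291 in DOX (SD, n = 3 each), a ratio of 2.01. Its log2 difference was 0.82 with a standard error of 0.20 (limma). This value depends on the pseudocount, since NPC1 is low on this scale, and with a pseudocount of 5 it was 0.51. After each library was centred on the median of the listed genes that averaged 1 or more in at least 1 group, it was 0.52. All these genes were called different in this comparison, so the centre may itself move with the comparison.

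IGFBP6 was lower with peptide E. Its expression value was 159.07, 132.42 and 121.42 in DOX+PeptideE replicates 1, 2 and 3, against 226.25, 178.99 and 202.36 in DOX replicates 1, 2 and 3. The highest DOX+PeptideE library lay below the lowest DOX library, which was DOX replicate 2. The means were 138 ± 19.4 in DOX+PeptideE and 203 ± 23.6 in DOX (SD, n = 3 each), which is 1.47-fold lower with peptide E. The log2 difference was -0.56 with a standard error of 0.16 (limma). With the same centring it was -0.86. In these bulk libraries, fewer cells with a transcript and less of it per cell cannot be told apart, for IGFBP6 as for the others.

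**Figure D1:**
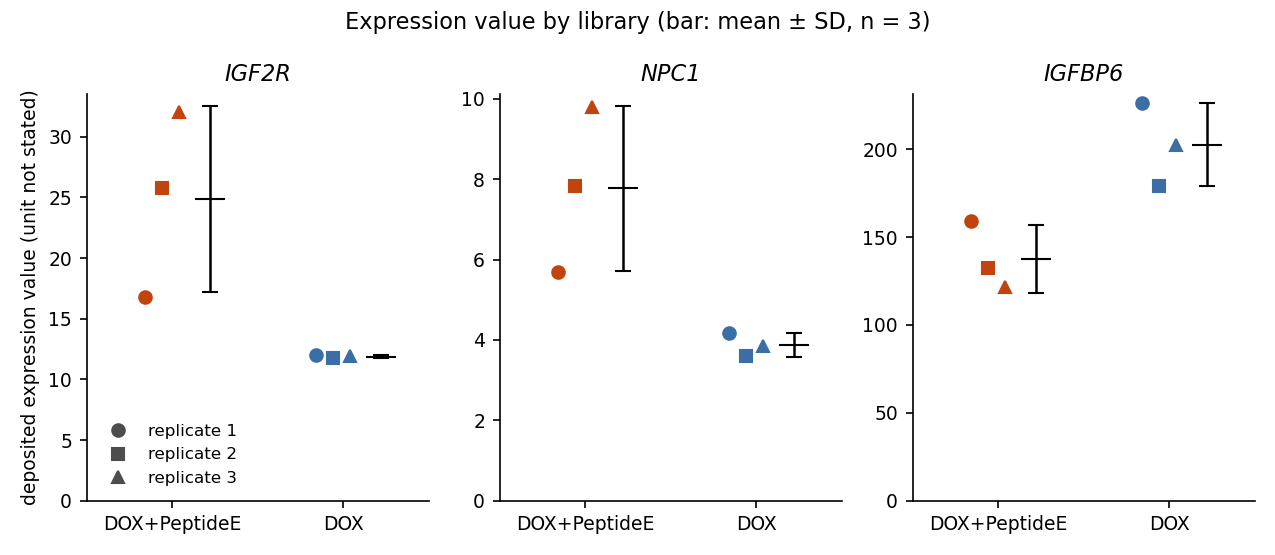
Expression value (vertical axis, unit not stated, starting at 0) of IGF2R, NPC1 and IGFBP6 in the DOX+PeptideE and DOX libraries, with symbols for replicates 1 to 3 and a bar for the mean ± SD (n = 3). For IGF2R the DOX libraries sit at 11.75 to 11.98, below the lowest DOX+PeptideE library at 16.81, and for IGFBP6 the DOX+PeptideE libraries lie below all DOX libraries.

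In the authors' deposited table, IGF2R had a fold change of 1.70 (adjusted p = 7.33e-05), NPC1 of 1.63 (adjusted p = 0.00187) and IGFBP6 of 0.568 (adjusted p = 0.000106), each as DOX+PeptideE over DOX. All 3 had an adjusted p under 0.05 there, against 56.7% of the listed genes. The groups did not overlap in any of the 3, against 76.1% of the listed genes without overlap. Listed higher were 2 of the 3, against 46.3% of the table. Nothing is read from these shares, because the same comparison selected the table. By the size of the authors' fold change, IGF2R ranked 107 and NPC1 156 among the 293 genes listed higher, and IGFBP6 ranked 158 among the 340 listed lower. By the ratio of the deposited means, IGF2R ranked 62 and NPC1 100 of the 242 genes listed higher that averaged 1 or more in at least 1 group, and IGFBP6 ranked 80 of the 257 such genes listed lower. By the difference on log2(value + 1), which shrinks the change of lower genes, the ranks were 12 for IGF2R, 58 for NPC1 and 55 for IGFBP6.

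The deposited values and the authors' fold changes lie on different scales. The log2 ratio of the deposited means was 1.07 for IGF2R, against an authors' log2 fold change of 0.76. For NPC1 it was 1.005 against 0.70, and for IGFBP6 -0.56 against -0.82. The ratio of deposited means was thus higher by 0.30 for IGF2R, 0.30 for NPC1 and 0.26 for IGFBP6. Across 196 listed genes averaging 5 or more in each group, the same offset had a median of 0.27. The members therefore kept their direction on both scales, but the excess of IGF2R and NPC1 was smaller, and the deficit of IGFBP6 larger, on the authors' scale.

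**Figure D2:**
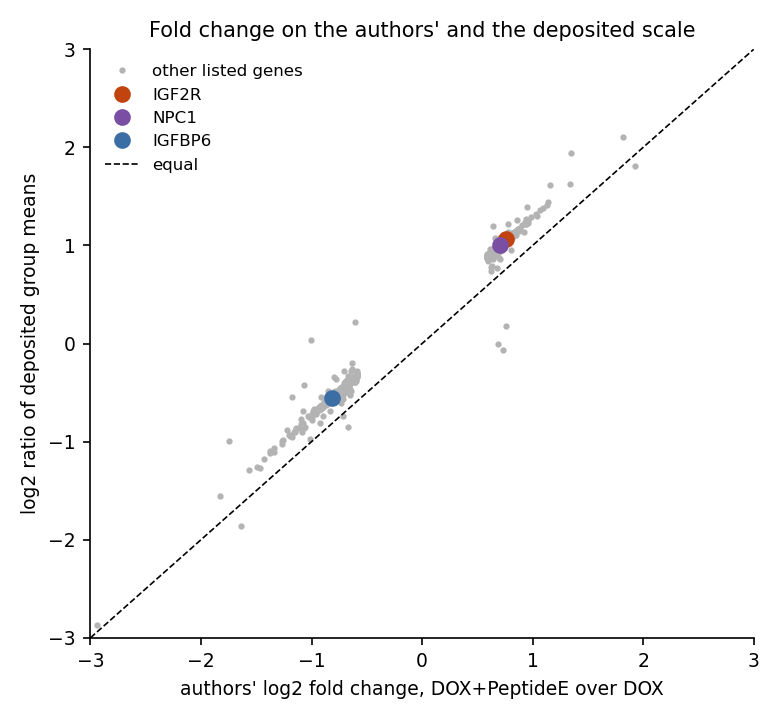
Log2 ratio of the deposited group means (vertical axis) against the log2 fold change in the authors' deposited table (horizontal axis), both DOX+PeptideE over DOX, for 497 listed genes that averaged 1 or more in at least 1 group, of which 3 lie outside the plotted range. IGF2R, NPC1 and IGFBP6 lie above the line of equality, as do 490 of the 497 genes.

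Ratios of members within a library do not depend on that scale, and only their difference between libraries is read here. The ratio of NPC1 to IGF2R was 0.338, 0.305 and 0.305 in DOX+PeptideE replicates 1, 2 and 3, against 0.349, 0.306 and 0.322 in DOX replicates 1, 2 and 3. These ranges overlapped, and the genes kept nearly the same proportion in all 6 libraries. Both were listed higher, with authors' fold changes of 1.70 for IGF2R and 1.63 for NPC1. A similar ratio in both groups follows from these like fold changes, so no link between the genes is read from it. The mean log2 ratio was -1.66 ± 0.0869 in DOX+PeptideE and -1.62 ± 0.0945 in DOX (SD, n = 3 each), a difference of -0.04. The ratio of IGF2R to IGFBP6 was 0.106, 0.194 and 0.264 in DOX+PeptideE replicates 1, 2 and 3, against 0.0530, 0.0656 and 0.0589 in DOX replicates 1, 2 and 3. That this ratio separates the groups follows from the values above, since IGF2R lay above and IGFBP6 below all DOX libraries, so only its size is added here. The difference of the mean log2 ratios was 1.58, or 2.98-fold. For NPC1 over IGFBP6 the difference was 1.53, or 2.89-fold.

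The DOX+PeptideE libraries differed among themselves in a way that the members shared with much of the table. The coefficient of variation of IGF2R was 30.8% in DOX+PeptideE and 0.992% in DOX, and that of NPC1 was 26.4% in DOX+PeptideE and 7.52% in DOX. Genes listed higher had median coefficients of 26.7% in DOX+PeptideE and 9.32% in DOX. On the deposited values, the DOX libraries were closer together for IGF2R than for all but 3 of the 242 genes listed higher that passed the filter on means. With the recovered library factors described below, IGF2R was at 13.2, 12.6 and 13.4 in DOX replicates 1, 2 and 3. On the deposited values, IGFBP6 varied by 14.1% in DOX+PeptideE and 11.7% in DOX. The medians among genes listed lower were 16.8% in DOX+PeptideE and 12.4% in DOX. After rescaling by these factors, IGFBP6 was at 155, 127 and 97.5 in DOX+PeptideE replicates 1, 2 and 3. On that scale IGF2R was at 16.4, 24.7 and 25.8 in the same libraries, and NPC1 at 5.56, 7.52 and 7.86. The coefficients above thus depend on the library scale, and no wider spread of IGF2R than of IGFBP6 is read from them.

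For IGF2R and NPC1, replicate 1 was the lowest and replicate 3 the highest DOX+PeptideE library, which held for 229 of the 293 genes listed higher (78.2%). For IGFBP6, replicate 1 was the highest and replicate 3 the lowest, which held for 111 of the 340 genes listed lower (32.6%). On log2(value + 1), IGF2R lay above the DOX mean by 0.47, 1.05 and 1.36 in DOX+PeptideE replicates 1, 2 and 3. The medians of the 242 genes listed higher were 0.39, 0.79 and 1.03 in the same libraries. NPC1 lay above the DOX mean by 0.46, 0.86 and 1.15. IGFBP6 lay at -0.34, -0.60 and -0.73, against medians of -0.33, -0.42 and -0.51 for genes listed lower. Without DOX+PeptideE replicate 1 the log2 difference of IGF2R was 1.21, that of NPC1 1.005 and that of IGFBP6 -0.66.

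Other genes of the IGF system, of lysosomal delivery and degradation and of cholesterol handling were looked up from 9 lists. The lists were written with earlier results of these data known. Of their 432 symbols other than the members, 10 are in the table, 9 listed higher with peptide E and 1 lower. Of the whole table, 46.3% is listed higher. An adjusted p under 0.05 in the authors' deposited table was given to 7 of the 10, all listed higher, against 56.7% of all listed genes. The whole table has 206 such genes listed higher and 153 lower. In 9 of the 10, no DOX+PeptideE library fell within the range of the DOX libraries, against 76.1% of all listed genes. The median authors' log2 fold change of the 10 was 0.68, against -0.60 over all listed genes. The table has a gap between its sides: the smallest listed fold change above 1 was 1.5004, and the largest below 1 was 0.6663. Because most of the table is listed lower, its median falls at the lower edge of this gap. The contrast of the medians therefore only restates the counts by direction, and no size of shift is read from it. Genes that the table does not list were not analysed here, so these counts say nothing of the rest of each list.

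Among ligands, receptors and binding proteins of the IGF system, 4 of 34 symbols were listed: IGF2R, IGFBP6, INSR and STC1. INSR, the insulin receptor, which also binds IGF2, was low, at 0.26, 0.55 and 0.45 in DOX+PeptideE replicates 1, 2 and 3, against 0.21, 0.18 and 0.14 in DOX replicates 1, 2 and 3. Every DOX+PeptideE library was above every DOX library, but the authors' adjusted p was 0.0647 in the authors' deposited table. STC1, stanniocalcin, a secreted inhibitor of the protease that cleaves IGF binding proteins, had 2.30, 3.47 and 3.41 in DOX+PeptideE replicates 1, 2 and 3. In DOX replicates 1, 2 and 3 it had 1.32, 1.91 and 1.69. STC1 was thus higher in every DOX+PeptideE library (authors' deposited table, adjusted p = 0.0480), and IGFBP6 was the only listed gene of this group that was lower.

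In the list of IGF and insulin signalling, 3 of 50 symbols were listed, all higher and all without overlap between the groups, in a table of which 46.3% is listed higher and 76.1% does not overlap. PDPK1, the kinase that phosphorylates AKT downstream of these receptors, averaged 12.8 ± 3.93 in DOX+PeptideE and 6.36 ± 0.374 in DOX (SD, n = 3 each). CBL, a ubiquitin ligase of activated receptor tyrosine kinases, averaged 6.60 ± 2.09 in DOX+PeptideE and 3.16 ± 0.0700 in DOX (SD, n = 3 each). TSC1, part of the complex that restrains the growth kinase mTORC1, averaged 4.76 ± 1.02 in DOX+PeptideE and 2.58 ± 0.225 in DOX (SD, n = 3 each). The listed signalling genes thus include an activator and 2 negative regulators, and the authors' deposited table gives them log2 fold changes of 0.71 for PDPK1, 0.74 for CBL and 0.59 for TSC1.

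At the lysosome, TPP1 was the only one of 62 symbols for hydrolases and their cofactors that was listed. TPP1 is a lysosomal protease that removes tripeptides from protein ends and reaches the lysosome by the mannose 6-phosphate route that IGF2R serves. Its expression value was 13.61, 17.38 and 21.24 in DOX+PeptideE replicates 1, 2 and 3, against 8.65, 8.42 and 9.29 in DOX replicates 1, 2 and 3. The groups did not overlap, as in 76.1% of all listed genes. The ratio of the TPP1 means was 1.98, with a log2 difference of 0.89 (limma standard error 0.18). DPP4, a cell-surface peptidase known to bind IGF2R in human lymphocytes, was at 1.49 ± 0.515 in DOX+PeptideE and 0.797 ± 0.154 in DOX (SD, n = 3 each; authors' deposited table, adjusted p = 0.190).

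Of 38 symbols looked up for control of lysosome number and of mTORC1 at the lysosomal surface, DEPDC5 was listed, as higher. It belongs to a complex that holds mTORC1 inactive when amino acids are scarce. DEPDC5 averaged 4.54 ± 0.774 in DOX+PeptideE and 2.38 ± 0.400 in DOX (SD, n = 3 each). VPS13D, a lipid transfer protein, was the only one of 83 endosomal sorting symbols listed, at 2.50 ± 0.904 in DOX+PeptideE and 1.22 ± 0.0781 in DOX (SD, n = 3 each). For both genes the groups did not overlap, as in 76.1% of all listed genes, so nothing is read from this.

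Among 63 symbols for lysosomal membrane proteins and acidification, NPC1 and ATP6V0A4 were listed. ATP6V0A4, a proton pump subunit known from acid-secreting kidney cells, was the only listed gene of the lysosomal lists that was lower. It had 0.05, 0.13 and 0.15 in DOX+PeptideE replicates 1, 2 and 3, against 0.30, 0.15 and 0.38 in DOX replicates 1, 2 and 3. The groups met at 0.15, the values were near the lowest that 2 decimals can show, and the authors' deposited table gives an adjusted p of 1. Of 45 cholesterol transport symbols looked up, only NPC1 was listed. None of the 43 symbols for sterol synthesis, uptake and sensing was listed, so that pathway was not analysed here.

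**Figure D3:**
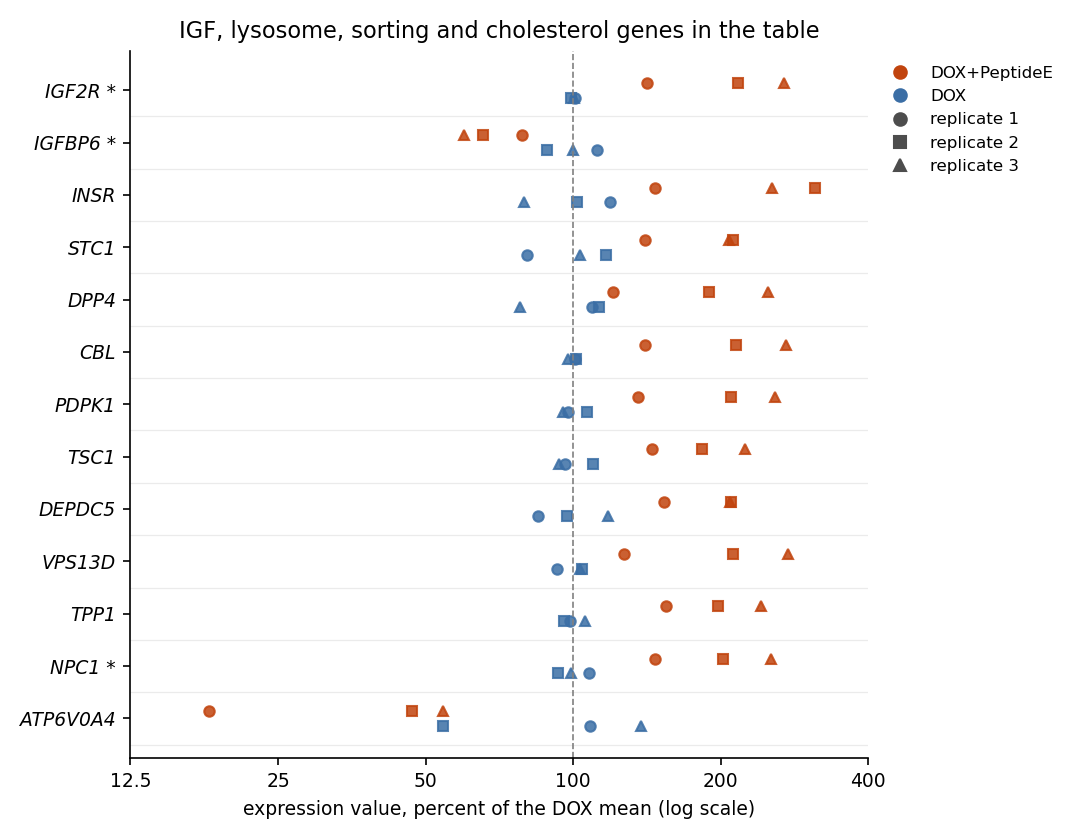
Expression value of each listed gene of the IGF, lysosome, sorting and cholesterol lists in every library, as percent of that gene's DOX mean (horizontal axis, log scale); colours mark DOX+PeptideE and DOX, symbols mark replicates, and members carry an asterisk. The DOX+PeptideE points lie right of the DOX points in 11 of the 13 genes, members included. They lie left of them in IGFBP6, and meet them at 54.2% of the DOX mean in ATP6V0A4. Of the whole table, which the same comparison selected, 76.1% of genes do not overlap and 46.3% are listed higher.

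The genes nearest to each member in profile were taken from 412 other listed genes that averaged 1 or more in at least 1 group and whose symbol does not begin with LOC. Nearness was the root mean square difference over the 6 libraries of log2(value + 1), centred per gene. For IGF2R the nearest was NOTCH2, a Notch receptor, at a difference of 0.0455, with expression values of 14.64, 21.66 and 29.20 in DOX+PeptideE replicates 1, 2 and 3 and of 10.74, 10.71 and 10.04 in DOX replicates 1, 2 and 3. HEG1, a transmembrane protein of cell junctions, MKI67, which marks proliferating cells, MAN2A2, a Golgi mannosidase of N-glycan processing, and COL12A1, a collagen, followed at 0.0582 to 0.0685. The median over all candidates was 0.360, and NPC1 was in place 38 at 0.104.

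For NPC1 the nearest gene was PTPRS, a receptor tyrosine phosphatase, at a difference of 0.0216. It had 15.64, 20.52 and 26.16 in DOX+PeptideE replicates 1, 2 and 3, and 11.46, 10.34 and 11.03 in DOX replicates 1, 2 and 3. ZMIZ1, a transcriptional coregulator, HUWE1, a ubiquitin ligase, KIRREL1, an adhesion protein related to nephrin, and BAZ2A, a chromatin protein of ribosomal DNA silencing, followed at 0.0317 to 0.0495. The median over candidates was 0.289, and IGF2R was in place 63 at 0.104. No gene of the lysosome or cholesterol lists was among the 5 nearest to NPC1 or to IGF2R. Few genes of those lists were among the candidates, so nothing is read from this.

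For IGFBP6 the nearest gene was KRT7, a keratin of simple epithelia, at a difference of 0.0456. KRT7 had 337.35, 266.26 and 250.19 in DOX+PeptideE replicates 1, 2 and 3, and 461.97, 348.78 and 433.14 in DOX replicates 1, 2 and 3. As for IGFBP6, DOX replicate 2 was the lowest DOX library. ANXA9, an annexin, GPD1, the cytosolic glycerol 3-phosphate dehydrogenase, SFN, a p53-induced inhibitor of the cell cycle, and RPS19, a ribosomal protein, followed at 0.0575 to 0.0733. The median over candidates was 0.572.

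**Figure D4:**
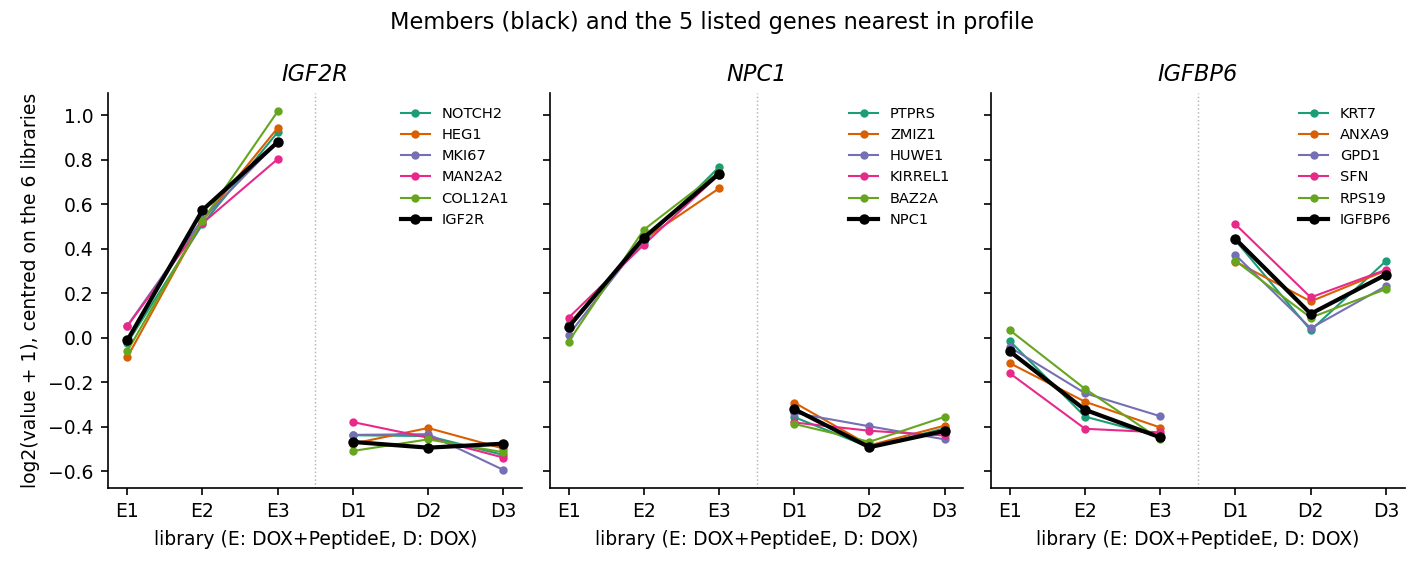
Log2(value + 1) centred on the 6 libraries (vertical axis) in DOX+PeptideE libraries E1 to E3 and DOX libraries D1 to D3, for each member in black and its 5 nearest listed genes in colour; lines only join the points of 1 gene within a group. The profiles of IGF2R and NPC1 spread over E1 to E3. Over D1 to D3, IGF2R is nearly level and NPC1 is lowest at D2. IGFBP6 and its neighbours are high in the DOX libraries and are also lowest at D2 among these.

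Of 22 kidney epithelial markers 6 were listed, 5 on the lower side, in a table of which 53.7% is listed lower, and GATA3 on the higher side. Of the 5, the authors' deposited table gives 3 an adjusted p under 0.05, namely AQP1, KRT7 and KRT18. KRT19 had 0.0648 and HAVCR1, whose groups overlapped, 0.160. GATA3 had an adjusted p of 0.000591 in the authors' deposited table. An adjusted p under 0.05 was thus given to 4 of the 6, against 56.7% of all listed genes. The summed value of all 6 ranged from 605 to 798 in DOX+PeptideE and from 875 to 1111 in DOX. It was carried by KRT7 and KRT18, and the other 4 summed to 19.6 to 30.5 in DOX+PeptideE and to 16.7 to 18.3 in DOX. Of these 4, only GATA3 was listed higher, averaging 19.9 ± 4.91 in DOX+PeptideE and 10.7 ± 0.750 in DOX (SD, n = 3 each). AQP1, KRT19 and HAVCR1 had lower means in DOX+PeptideE than in DOX. KRT18, a keratin of simple epithelia, averaged 369 ± 63.0 in DOX+PeptideE and 589 ± 70.3 in DOX (SD, n = 3 each). S100A4, the only one of 15 fibroblast and stromal markers listed, ranged from 143 to 188 in DOX+PeptideE and from 249 to 274 in DOX. The part of these markers in the values of IGFBP6 was not tested. None of 11 endothelial and 11 immune markers was listed, so whether such cells were present was not analysed here, and the kidney identity of the line could be checked only on the listed epithelial genes. In the gene order of the RefSeq assembly F.catus_Fca126_mat1.0, KRT18 lies 4 protein-coding genes from IGFBP6 on the same chromosome, and KRT7 lies 34 away. KRT18 was the only listed gene within 10 protein-coding genes on either side of IGFBP6, and there was no listed gene in that range around IGF2R or NPC1.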

How the data were processed

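The authors' deposited table holds 1 normalized expression signal per gene and library, the authors' fold change, its log2 value, and unadjusted and adjusted p-values, per the file headers. The largest unadjusted p-value in the deposited table is 0.0498. FastQC 0.11.9 and fastp 0.19.5 appear in the submitters' processing notes, and the table's name refers to RSEM. Aligner, genome build, annotation, strand and depth are not stated, so no coordinates are given and no counting error could be computed.

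Members were found by gene name. Values were used as deposited, as log2(value + 1), and the 499 of 633 genes averaging 1 or more in at least 1 group entered a limma fit with a variance trend (limma 3.58.1, R 4.3.3), which gave the standard errors. No p-value was computed. The fit was tested on simulated data. Library factors were also recovered from the authors' fold changes over 196 genes. Named genes are the members, the 5 genes nearest to each in profile, and all listed genes of the lists. Members and lists were chosen with earlier results of these data known. Some listed genes are not reported here and were left out of the lists, so list counts do not cover every gene in the table. Of 492 list symbols, 477 were found in the RefSeq table. Promoter motifs and protein lengths, although planned, were not analysed here.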

Additional observations from a re-analysis of the deposited data

How the results depend on the processing

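The log2 differences of IGF2R, NPC1 and IGFBP6 kept their sign in all 12 alternatives run for each gene. The gap between the groups makes this certain where a library is left out, the pseudocount is changed or arithmetic means are used. The replicate block cannot change the differences, because each replicate number occurs once in both groups. Median-centring, which shifts all listed genes by a median of -0.30, gave 0.66 for IGF2R, 0.52 for NPC1 and -0.86 for IGFBP6. The medians used were 2.44 to 2.77 in DOX+PeptideE and 2.30 to 2.33 in DOX. They come from genes called different in this comparison, so this is not a neutral scaling of the libraries. The recovered library factors, with a median shift of -0.22, gave 0.70 for IGF2R, 0.59 for NPC1 and -0.83 for IGFBP6. These factors were fitted to the fold changes that selected the table and are no independent check. A pseudocount of 5 gave 0.51 for NPC1, because it weighs more on low values. With 1 library left out, the values ranged from 0.76 to 1.21 for IGF2R, from 0.66 to 1.005 for NPC1 and from -0.66 to -0.47 for IGFBP6. The count of listed genes without overlap was 482 of 633. With 1 library left out, an alternative chosen after seeing the data, it ranged from 497 to 571. Leaving out a library can only keep or raise this count, so that range is no check of it. Median-centring gave 522 and the recovered library factors 536. Among only the 499 genes that passed the filter on means, the count was 379.

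With the replicate number as a block (replicate block), the differences stayed at 0.96, 0.82 and -0.56 for IGF2R, NPC1 and IGFBP6, as this design fixes. Only the standard errors could change, and they were 0.20, 0.22 and 0.17. The labels give same-numbered libraries nothing in common but the number. Across genes, the correlation of their deviations from the group means was 0.34 for replicate 1, -0.04 for replicate 2 and -0.09 for replicate 3. Between libraries of the 2 groups with different numbers it ranged from -0.29 to 0.36. The alternatives on protein length were not run. Depth is unknown, which limits what can be said of the lowest genes, such as ATP6V0A4 and INSR.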
